A study of Rattus norvegicus with 47 samples.

Results

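The collagen chains, integrin chains and ADAMTS proteases of the rat kidney cortex were followed through lithium feeding with and without amiloride. Members were the genes whose symbol in any of the 9 comparison tables deposited by the authors matched a collagen chain name or began with Itga, Itgb or Adamts, with Itgam left out. This gave 70 of the 32545 genes counted, of which 9237 carried a symbol. They were 31 collagen chains, 22 integrin chains (14 alpha and 8 beta), 11 Adamts and 4 Adamts-like genes, and 2 further genes with the Itg prefix, Itgb1bp2 and Itgbl1. All rats were male Wistar rats, and each library was made from bulk cortex of a different animal as far as the labels say. In the 14- and 28-day studies the control group ate normal chow, and the lithium group ate chow with 40 mmol lithium per kg for 7 days and 60 mmol per kg after that. The lithium-amiloride group received the same lithium, with 0.2 mM amiloride in the drinking water from the first day. In the 6-month study amiloride was given for the last 5 months. Every lithium-fed rat also had a salt block, which controls were not described as having, so lithium and the salt block cannot be told apart.

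Collagens are the triple-helical proteins of the extracellular matrix. Fibrillar collagens such as types I and III form the fibres of interstitial scar, and type IV forms the sheet of basement membranes. Type VI forms beaded filaments around interstitial cells, and the transmembrane type XVII holds epithelial cells to their basement membrane. Integrins are pairs of an alpha and a beta chain that bind matrix or other cells. The pair of alpha 6 and beta 4 sits in the hemidesmosome of epithelia and binds laminin. Alpha 1, 2 and 11 bind collagen with beta 1, and alpha v with beta 6 or beta 8 binds latent TGF-beta. Alpha L with beta 2 and alpha 4 with beta 1 or beta 7 are carried by leukocytes. ADAMTS proteases are secreted enzymes that trim procollagens or cut proteoglycans such as versican and aggrecan, and the Adamts-like proteins share their form without the catalytic domain and bind fibrillin microfibrils.

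Counted reads per library ran from 10399818 to 15618395 in the 14-day study, from 14779709 to 17554304 in the 28-day study and from 21245870 to 25415685 in the 6-month study, over 47 libraries. Levels below are CPM, the reads of a gene per 1000000 counted reads, scaled by the trimmed mean of M-values within a time, with no correction for gene length, and levels are compared between groups of one gene only. The fits held 6 control, 6 lithium and 5 lithium-amiloride libraries at 14 days and again at 28 days, and 4 labelled control, 3 labelled lithium and 3 labelled lithium-amiloride libraries at 6 months. The p-values measure the spread between these animals. Lithium-amiloride 2 at 14 days, lithium 4 and lithium-amiloride 4 at 6 months were left out, because the mean counts of the deposited tables were recovered only without them. The paper states that 6-month samples were removed where they did not cluster with their group, and it marks outliers at 14 days also. The p-values therefore do not include the spread of the libraries left out. The 6-month counts with all deposited libraries are given at the end. At 6 months the group labels and the authors' tables disagreed. The tables' control values came back from the 3 libraries labelled lithium-amiloride, their lithium values from the 4 labelled control, and their lithium-amiloride values from the 3 labelled lithium. Both names are therefore given where each 6-month comparison is introduced. Single 6-month values carry the labels, to be read under the tables' names by this match. At 28 days, the library control 1 stood apart from the other controls over all genes and was kept in the fits. The mean chi-square per gene between the counts of 2 libraries was 83.7 to 112.3 for control 1 with each other control. It was 8.17 to 34.4 among the other 5. T cell markers summed to 23.8 CPM in control 1 and to 7.88 to 13.1 CPM in the other 5.

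The promoters of 56 of the 70 members were found by symbol in the RefSeq table of the GRCr8 build, a build other than the Rnor_6.0 used for counting. Those of 2 members called higher with lithium at 14 and 28 days (Itga2, Adamtsl5) and of 2 that fell at 14 and 28 days (Col26a1, Itga11) are printed below as the 250 bases before the transcription start, 5′ to 3′ on the strand of the gene, with the 76 bases that separate the divergent starts of Col4a2 and Col4a1, which were not called in any comparison. Capitals mark matches, on either strand, to 6 motifs: the TATA box with letters TATAAA, the CCAAT box with letters CCAAT, the GC box with letters GGGCGG, the AP-1 motif with letters TGANTCA, the TEAD motif with letters GGAATG and the SMAD motif with letters CAGACA.
Itga2 promoter, chr2:48354510-48354759, minus strand: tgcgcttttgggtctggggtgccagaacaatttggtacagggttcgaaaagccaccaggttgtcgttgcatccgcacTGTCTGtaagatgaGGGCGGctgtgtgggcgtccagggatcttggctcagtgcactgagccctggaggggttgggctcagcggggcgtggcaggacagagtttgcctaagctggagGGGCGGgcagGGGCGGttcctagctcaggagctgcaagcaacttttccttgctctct
Adamtsl5 promoter, chr7:10013705-10013954, plus strand: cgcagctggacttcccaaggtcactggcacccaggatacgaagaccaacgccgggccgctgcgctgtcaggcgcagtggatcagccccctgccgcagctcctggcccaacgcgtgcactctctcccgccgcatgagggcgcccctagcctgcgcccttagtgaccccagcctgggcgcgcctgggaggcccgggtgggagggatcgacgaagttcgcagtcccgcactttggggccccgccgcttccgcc
Col26a1 promoter, chr12:25429146-25429395, plus strand: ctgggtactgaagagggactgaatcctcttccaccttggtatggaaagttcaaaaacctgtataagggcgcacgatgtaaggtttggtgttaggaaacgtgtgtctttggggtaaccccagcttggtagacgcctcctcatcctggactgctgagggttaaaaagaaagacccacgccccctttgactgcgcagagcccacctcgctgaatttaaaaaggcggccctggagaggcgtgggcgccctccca
Itga11 promoter, chr8:72041182-72041431, plus strand: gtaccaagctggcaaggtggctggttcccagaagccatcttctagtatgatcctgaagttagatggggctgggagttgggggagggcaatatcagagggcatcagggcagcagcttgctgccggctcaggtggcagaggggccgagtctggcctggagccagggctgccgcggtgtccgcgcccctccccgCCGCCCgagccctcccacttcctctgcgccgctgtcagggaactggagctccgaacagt
Region between the Col4a2 and Col4a1 starts, chr16:84885521-84885596, plus strand: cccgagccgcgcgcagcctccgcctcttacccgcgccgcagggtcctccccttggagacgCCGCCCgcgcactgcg
The Itga2 promoter held 3 GC boxes and 1 SMAD letter match, and those of Adamtsl5 and Col26a1 held none of the 6 motifs. The Itga11 promoter and the Col4a2-Col4a1 region held 1 GC box each. Over all 33469 promoters of the table, 30.5% held a GC box, 34.0% a CCAAT box, 17.2% the SMAD letters, 12.9% a TATA box, 12.1% the TEAD letters and 6.34% the AP-1 letters in the same 250 bases. Among the 56 member promoters, 31 held a GC box, 12 a CCAAT box, 10 the SMAD letters, 8 a TATA box, 8 the TEAD letters and 2 the AP-1 letters.

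A member was called where the adjusted p was under 0.05 over all genes and the log2 fold change was at least 0.5 in size. Because the tables list genes for an adjusted p under 0.05 in these same libraries, a member's own value is a test only at a time whose tables were not needed to choose it, that is, where a table of another study lists it. This held for 51 members at 14 days, 58 at 28 days and 63 at 6 months. For the others the values are descriptions without a p. Genes with no table entry carry no symbol in the files, so genes just outside the listing limit are not analysed here. Col5a1, Col1a2, Adamts7, Col4a2 and Col14a1 are listed, but in the present fits had no adjusted p under 0.05 in any of the 9 comparisons. Their log2 fold changes were -0.57 ± 0.15 (SE) for labelled lithium against labelled control at 6 months, 1.87 ± 0.66 (SE) for lithium-amiloride against control at 14 days, -0.56 ± 0.20 (SE) and 0.18 ± 0.07 (SE) for lithium against control at 28 and at 14 days, and -0.86 ± 0.34 (SE) for lithium-amiloride against control at 28 days. Col15a1 did not pass the filter on low counts at any time and Col26a1 did not pass it at 6 months. Over the 9 comparisons 50 members were called at least once and 20 never. The tables that chose the members come from these libraries, so a high count follows from the choice. It was not made over all genes. Of the 50, 30 were called where another study lists them. The 20 never called were Col1a2, Col4a1, Col4a2, Col4a4, Col4a5, Col5a1, Col6a6, Col11a2, Col14a1, Col15a1, Itga2b, Itga3, Itga6, Itga9, Itgb1, Itgb5, Adamts5, Adamts7, Adamts12 and Adamtsl4.

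With lithium, the integrin chains that were called were mostly higher at both times, and the collagens that were called at 28 days were mostly lower. At 14 days 23 of the 69 members tested were called between lithium and control, 16 higher and 7 lower, where 12.1% of all genes were called (8.49% higher and 3.63% lower). Among the 50 tested members that another study lists, 17 were called, 12 higher and 5 lower, beside 15.7% of all genes listed in the same way. At 28 days 22 members were called, 9 higher and 13 lower, where 9.07% of all genes were called (5.49% higher and 3.59% lower). Of the 58 listed by another study 17 were called, 7 higher and 10 lower, beside 14.4% of all genes so listed. By family, and among those listed by another study, 6 of 15 integrin chains were higher and 1 lower at 14 days and 5 of 17 were higher and 1 lower at 28 days. Of the collagens so listed, 3 of 22 were higher and 4 lower at 14 days and 1 of 26 was higher and 7 were lower at 28 days. Shares by direction were not counted among genes that another study lists. Of all genes with a symbol, 12.6% were higher and 5.31% lower at 14 days, and 8.3% and 5.46% at 28 days, so called genes in general leaned towards higher. With the members that only the tables of the same time list, the counts were 8 integrin chains higher and 1 lower at 14 days and 7 higher and 2 lower at 28 days, and 4 collagens higher and 5 lower and then 1 higher and 8 lower. The median log2 fold change of the integrin chains listed by another study was 0.405 at 14 days and 0.06 at 28 days, and that of the collagens so listed was -0.143 and -0.105, where the median of all genes so listed was within 0.03 of 0. No member was called in opposite directions at the 2 times, a count that was not made over all genes. The 28-day count fell to 14 without lithium 4 and was 28 without control 1, and the 14-day count stayed between 18 and 23 whichever library was left out.

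**Figure D1:**
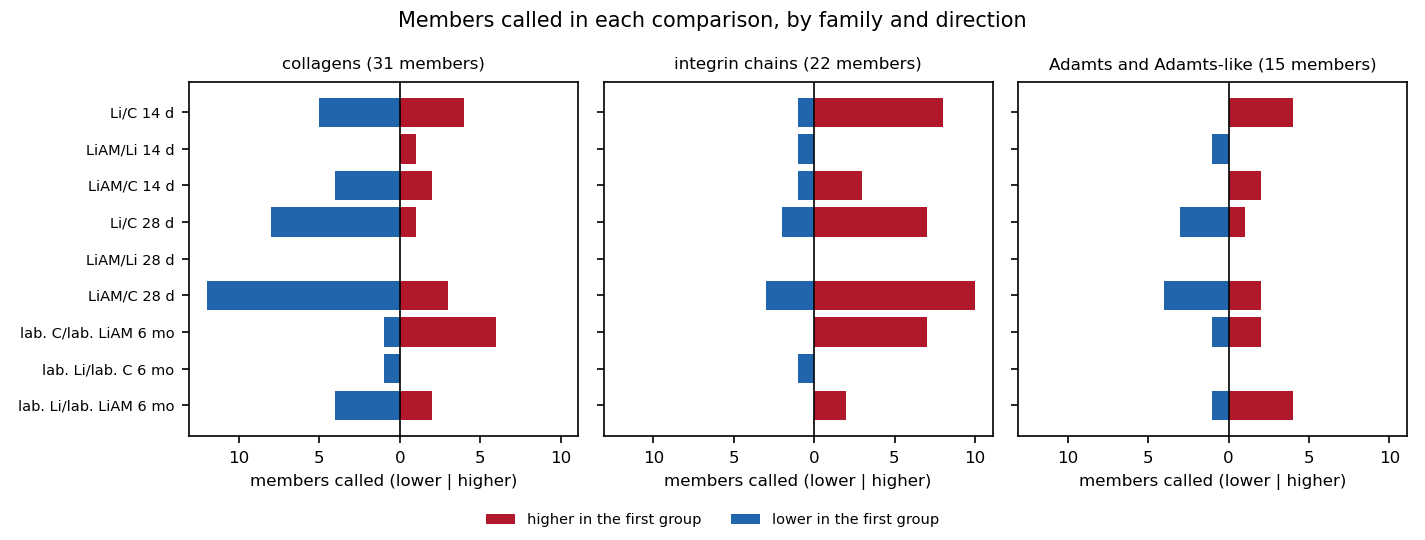
Number of collagens, integrin chains and Adamts or Adamts-like members called higher (red, to the right) or lower (blue, to the left) in the first group of each of the 9 comparisons (Li, lithium; LiAM, lithium-amiloride; C, control; lab., group as labelled at 6 months). Collagen bars reach 12 to the left and integrin bars 10 to the right in lithium-amiloride against control at 28 days.

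**Figure D2:**
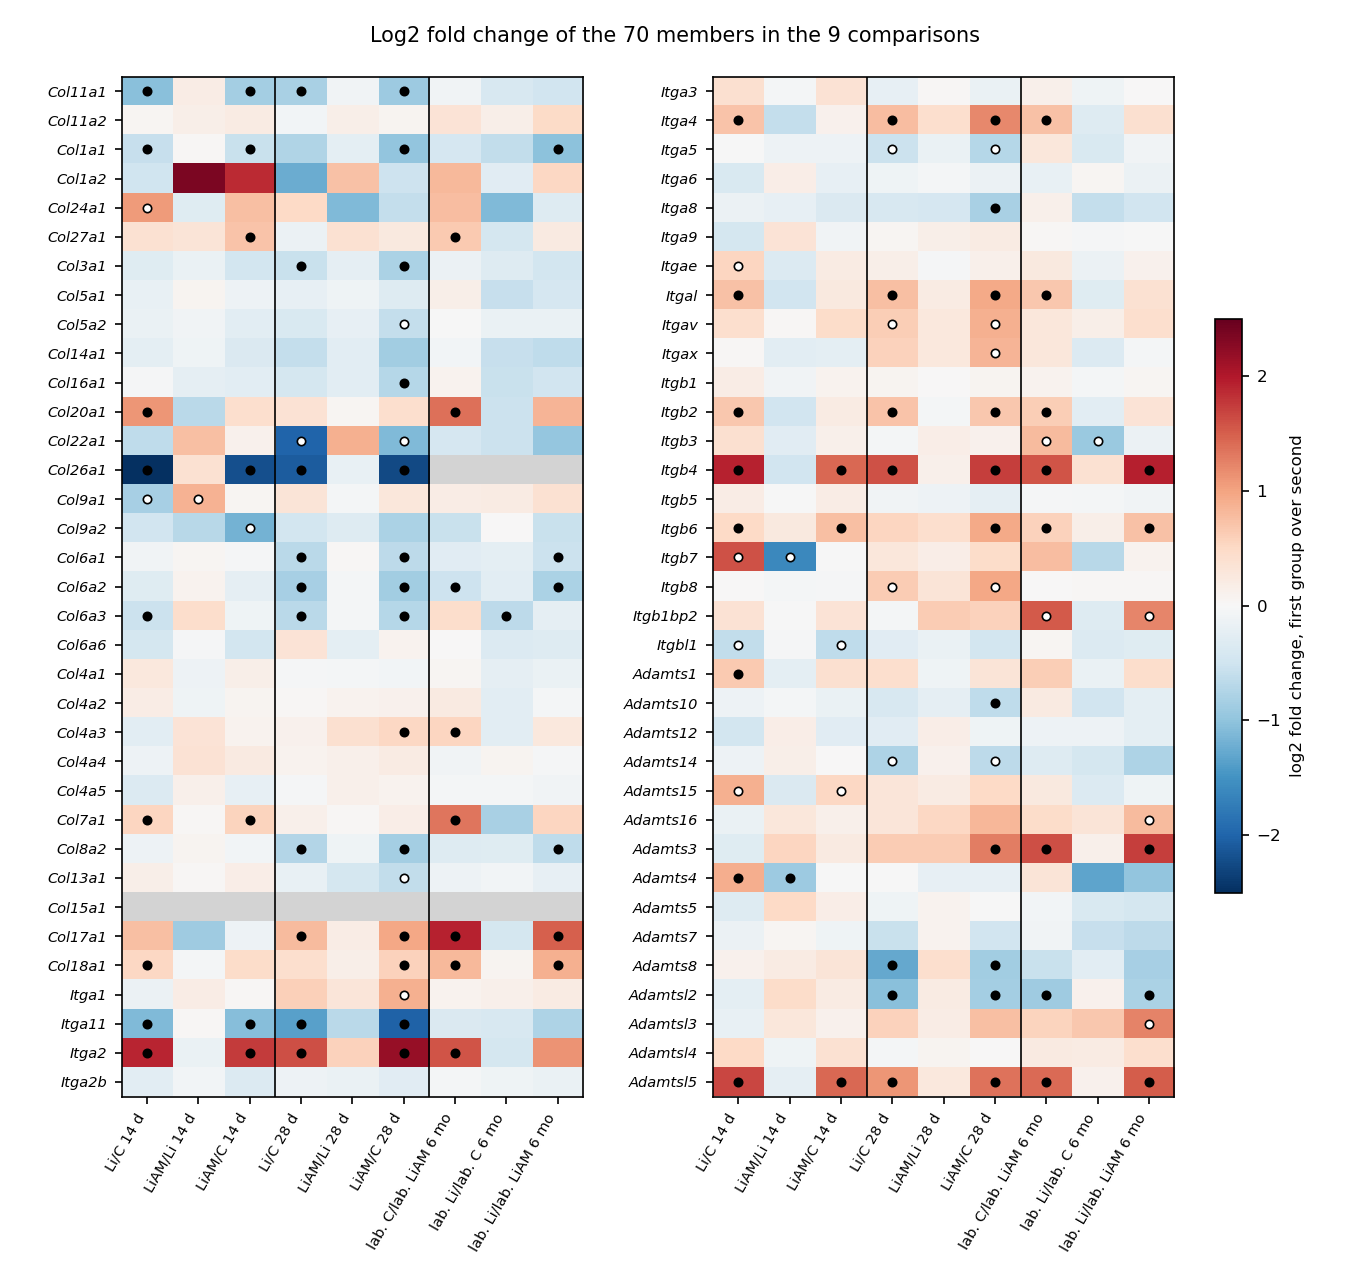
Log2 fold change (colour, first group over second) of each of the 70 members in the 9 comparisons, ordered by family. Filled dots mark called members that a table of another study lists, open dots called members that it does not, and grey cells members that did not pass the low-count filter. Itgb4 and Adamtsl5 are red in every contrast of lithium-fed rats with controls at 14 and 28 days, and Col26a1 is blue in them.

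Itgb4, the beta 4 chain of the hemidesmosome, rose with lithium in both studies. At 14 days Itgb4 was at 6.52 to 8.03 CPM (median 7.3) in controls, 24.4 to 31.5 CPM (median 27.3) with lithium and 19.8, 21.1, 15.6, 21.2 and 21.4 CPM with lithium-amiloride. Every lithium-fed rat lay above every control. Lithium over control gave a log2 fold change of 1.92 ± 0.09 (SE), adjusted p = 1.22e-10, and that of lithium-amiloride over control was 1.44 ± 0.10 (SE), adjusted p = 8.27e-09. Lithium-amiloride rats lay below all lithium rats (-0.48 ± 0.09 (SE), adjusted p = 0.00549), a difference under the limit of 0.5 in size. At 28 days Itgb4 was at 5.04 to 8.01 CPM (median 5.96) in controls, 12.1 to 23 CPM (median 19.1) with lithium and 17, 20.5, 21.8, 19.2 and 22 CPM with lithium-amiloride, and the groups of lithium-fed rats again did not overlap with controls (1.60 ± 0.14 (SE), adjusted p = 7.41e-07 for lithium over control). In bulk cortex, more cells that carry a transcript and more transcript per cell cannot be told apart, for this gene and for all that follow. Markers of the collecting duct principal cell (4 of 4 at 14 days, 3 of 4 at 28 days) were called lower with lithium, their sum falling from 290.2 to 369.2 CPM in controls to 49.1 to 98.9 CPM at 14 days, and their part in the integrin values was not tested.

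**Figure D3:**
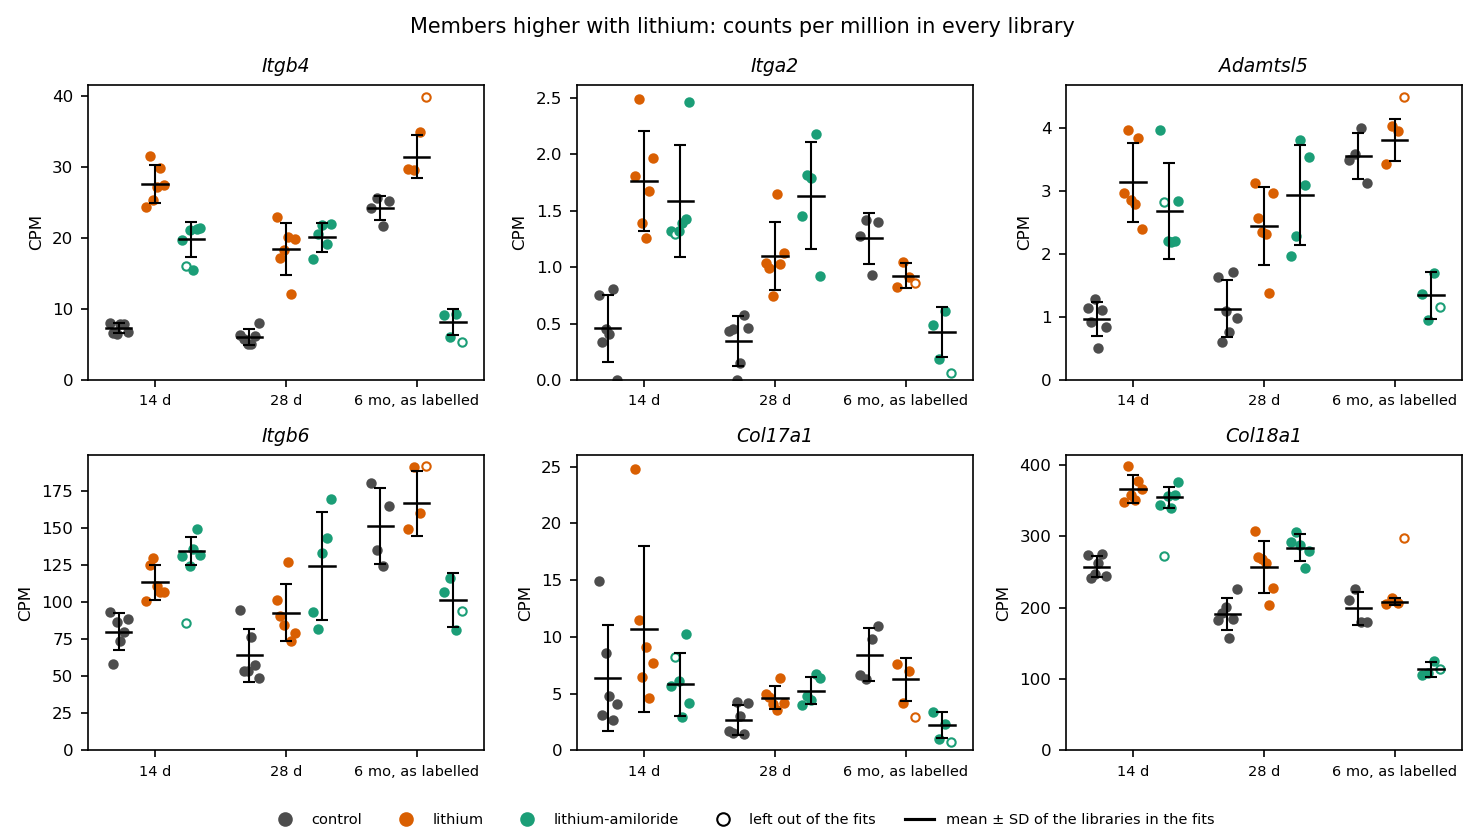
CPM in every library for 6 members that were higher with lithium, by study and labelled group (dots, libraries; open dots, libraries left out of the fits; lines, mean ± SD). For Itgb4, all control libraries at 14 and 28 days lie at or below 8.03 CPM and all lithium-fed ones at or above 12.1 CPM; at 6 months the libraries labelled lithium-amiloride, the tables' control group, are the low ones.

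Itga2, whose alpha 2 chain binds collagen on epithelial cells and platelets, was low in all libraries and was also higher with lithium. It was at 0 to 0.81 CPM (median 0.428) in 14-day controls, 1.26 to 2.49 CPM (median 1.74) with lithium and 1.32, 1.32, 1.39, 1.43 and 2.46 CPM with lithium-amiloride. All lithium-fed rats lay above all controls, and the log2 fold change of lithium over control was 1.91 ± 0.36 (SE), adjusted p = 7.14e-04. At 28 days the values were 0 to 0.572 CPM (median 0.442), 0.745 to 1.65 CPM (median 1.03) and 1.45, 1.81, 1.79, 2.18 and 0.924 CPM in the same order, with no overlap between controls and lithium (1.62 ± 0.38 (SE), adjusted p = 0.00788). The control values rest on 0 to 11 reads per library at 14 days and 0 to 8 reads at 28 days, so the size of the fold is imprecise.

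Itgb6, the epithelial beta 6 chain that pairs with alpha v, differed by less. In 14-day controls it was at 58.3 to 93.3 CPM (median 83.3), with lithium at 101 to 129.8 CPM (median 109) and with lithium-amiloride at 131, 124, 136, 149.8 and 132 CPM. The lithium and control ranges did not overlap (0.50 ± 0.09 (SE), adjusted p = 6.10e-04), and the fold sat at the limit of 0.5. The 14-day call of Itgb6 for lithium was lost when control 2, 4 or 5, lithium 2 or 3 or lithium-amiloride 1 or 3 was left out. Itgb6 then had a log2 fold change of 0.42 to 0.50 and an adjusted p of 4.40e-04 to 0.00197. The value for lithium-amiloride over control was 0.75 ± 0.10 (SE), adjusted p = 2.78e-05. At 28 days Itgb6 was at 48.9 to 94.9 CPM (median 55.7) in controls and 73.8 to 127 CPM (median 87.8) with lithium, a difference that was not called (0.53 ± 0.19 (SE), adjusted p = 0.0598), and at 93.3, 81.7, 134, 143 and 170.1 CPM with lithium-amiloride, which was (0.95 ± 0.20 (SE), adjusted p = 0.00198). Its alpha v partner Itgav and the other TGF-beta binding chain Itgb8 were listed by the 28-day study alone, so their 28-day values are descriptions. Itgav was at 27.4 to 62.1 CPM (median 35.2) in 28-day controls, 38.9 to 87.1 CPM (median 56.8) with lithium and 64.7, 71.1, 69, 62.9 and 88.8 CPM with lithium-amiloride, and its highest control was control 1. For Itgb8 the same groups were at 25.9 to 45.2 CPM (median 36.8), 38.2 to 67 CPM (median 57.7) and 67.1, 72.8, 53, 70.3 and 76.4 CPM. At 14 days, where they can be tested, neither was called, with log2 fold changes of lithium over control of 0.43 ± 0.17 (SE) for Itgav and 0.01 ± 0.19 (SE) for Itgb8.

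Other integrin chains differed from one another. Itgb1, the common partner of most alpha chains, stayed within 297 to 384 CPM in controls, 327 to 379 CPM with lithium and 357 to 377 CPM with lithium-amiloride at 28 days (0.06 ± 0.06 (SE), adjusted p = 0.482 for lithium over control). The 95% interval of that log2 fold change ran from -0.06 to 0.18. Itga6, the alpha partner of beta 4, had a log2 fold change of -0.11 ± 0.17 (SE) at 28 days and was not called in any comparison. It is listed by the 14-day study alone. Its lithium response at 28 days less that at 14 days was 0.28 ± 0.23 (SE, log2 scale), given without a test. Itga3, which binds laminin with beta 1, was at 73.9 to 83 CPM (median 78.1) in 14-day controls and 97 to 113 CPM (median 103) with lithium, with no overlap. At 28 days the Itga3 ranges were 72 to 128 CPM and 71.3 to 89.9 CPM. Itga8, the nephronectin receptor of mesangial and smooth muscle cells, fell with lithium-amiloride at 28 days from 20.3 to 36.6 CPM (median 28.7) in controls to 15.4, 15.2, 18.4, 13.7 and 16.6 CPM (-0.82 ± 0.14 (SE), adjusted p = 3.77e-04), and lithium alone lay between them at 18.5 to 25.7 CPM (median 19.9). Podocyte markers (3 of 4) and endothelial markers (2 of 4 tested) were called lower with lithium in the same 28-day libraries, with podocyte sums of 520.6 to 989.8 CPM in controls and 432.7 to 549.5 CPM with lithium, and their part in the Itga8 values was not tested.

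The leukocyte integrin chains Itgal, Itgb2 and Itga4 rose with lithium at both times. Itgal, the alpha L chain of LFA-1, was at 11.9 to 20.9 CPM (median 17.4) in 14-day controls, 19.1 to 41.8 CPM (median 27.7) with lithium and 19.4, 25.4, 19.9, 18.7 and 18.1 CPM with lithium-amiloride. Its lithium and control ranges overlapped, and the log2 fold change was 0.73 ± 0.17 (SE), adjusted p = 0.00321. Itgb2, its beta partner, changed by a like amount at 14 days (0.68 ± 0.17 (SE), adjusted p = 0.00535), from 16.4 to 20.5 CPM (median 17.5) in controls to 18.2 to 43.9 CPM (median 27.4). Against lithium, lithium-amiloride was not called for either (-0.48 ± 0.17 (SE), adjusted p = 0.14 for Itgal and -0.47 ± 0.17 (SE), adjusted p = 0.149 for Itgb2). At 28 days the 2 genes again rose with lithium, Itgal from 5.71 to 13.4 CPM (median 8.09) to 9.4 to 18.4 CPM (median 14) (0.75 ± 0.22 (SE), adjusted p = 0.0265) and Itgb2 from 10.4 to 13.4 CPM (median 10.9) to 13.4 to 24.1 CPM (median 18.2) (0.71 ± 0.14 (SE), adjusted p = 0.00215). Leaving out control 2, 3 or 6 or lithium 4 or 6, one at a time, ended the 28-day call of Itgal for lithium. Those fits gave Itgal a log2 fold change of 0.66 to 0.73 and an adjusted p of 0.0501 to 0.067. With lithium-amiloride at 28 days Itgal was at 12.6, 9.54, 21.4, 17.8 and 21.5 CPM and Itgb2 at 14.3, 13.7, 21.1, 21.7 and 19.3 CPM.

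Itga4, the alpha 4 chain of lymphocytes and monocytes, rose from 2.24 to 5.62 CPM (median 4.63) to 3.29 to 10.3 CPM (median 6.7) at 14 days (0.70 ± 0.25 (SE), adjusted p = 0.043) and from 0.704 to 2.82 CPM (median 1.99) to 2.51 to 3.96 CPM (median 3.47) at 28 days (0.78 ± 0.24 (SE), adjusted p = 0.0328). The 14-day call of Itga4 for lithium was lost when control 1, 2, 4 or 5 or lithium 2, 3 or 6 was left out. Itga4 then had a log2 fold change of 0.56 to 0.74 and an adjusted p of 0.0563 to 0.112. Leaving out control 2, 3, 4, 5 or 6 or lithium 3, 4 or 6, one at a time, ended the 28-day call of Itga4 for lithium. Those fits gave Itga4 a log2 fold change of 0.61 to 0.80 and an adjusted p of 0.0511 to 0.0741. Itgb7, which pairs with alpha 4 or alpha E on lymphocytes of mucosal surfaces, was listed by the 14-day study alone and was at 1.26 to 1.98 CPM (median 1.69) in 14-day controls, 2.35 to 10.2 CPM (median 3.94) with lithium and 1.67, 1.45, 2.45, 0.974 and 1.58 CPM with lithium-amiloride. The lithium range lay above controls, and its top value of 10.2 CPM came from lithium 6. T cell markers (4 of 5) and macrophage markers (2 of 4) were called higher with lithium at 14 days as well, the T cell sum being 17.9 to 31.7 CPM in controls and 33.0 to 48.1 CPM with lithium. At 28 days 2 T cell and 2 macrophage markers were called higher. The part of these cells in the integrin values was not tested. Itgax, a chain of dendritic cells and macrophages, was not called with lithium at 14 days (0.04 ± 0.22 (SE)).

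**Figure D4:**
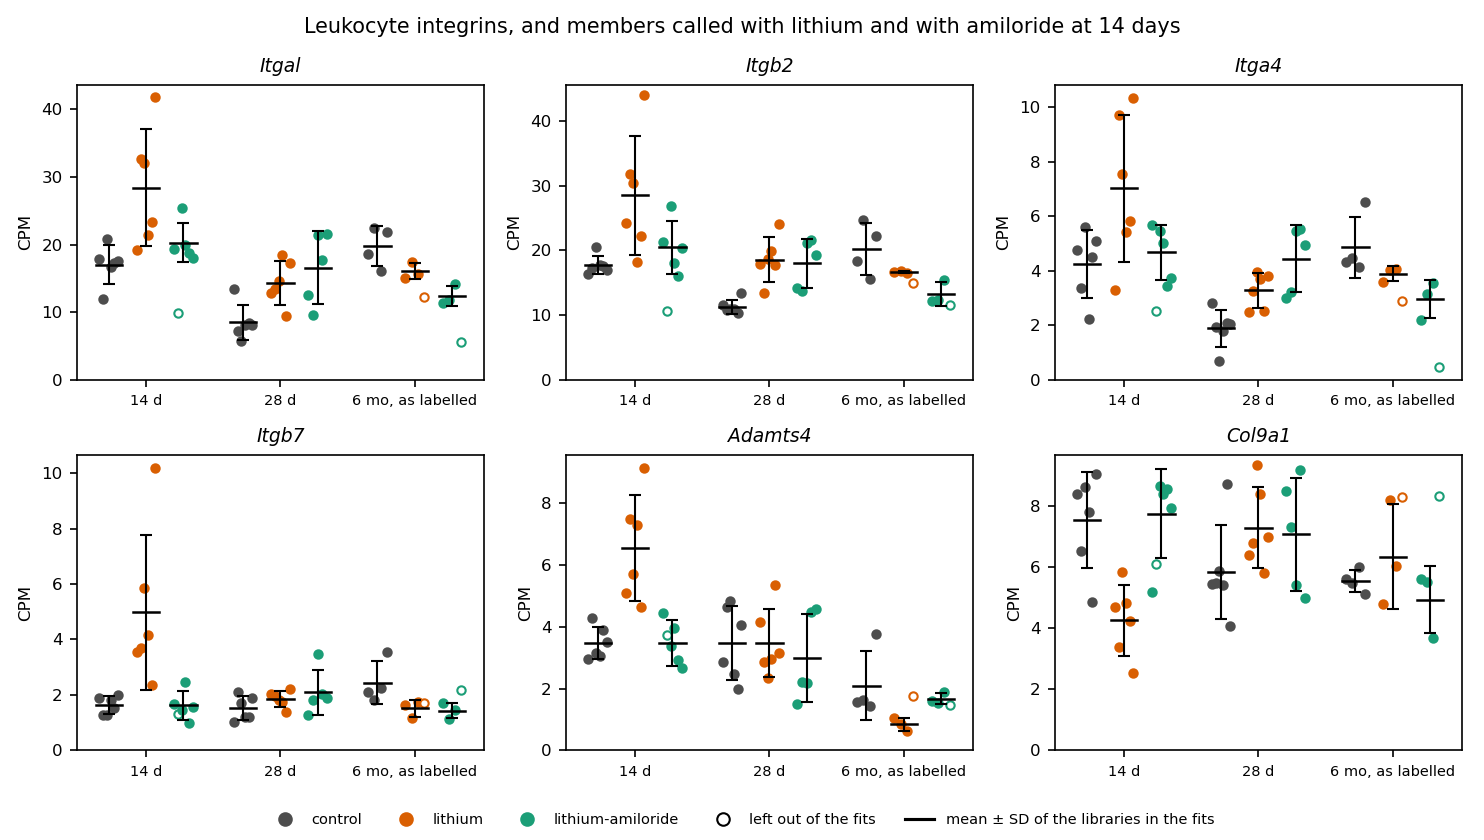
CPM in every library for 4 leukocyte integrin chains and for Adamts4 and Col9a1, by study and labelled group (dots, libraries; open dots, left out of the fits; lines, mean ± SD). At 14 days the lithium libraries of Itgb7 reach 10.2 CPM while controls and lithium-amiloride stay at or below 2.45 CPM, and Adamts4 is at 4.63 to 9.14 CPM with lithium and at 2.65 to 4.44 CPM with lithium-amiloride.

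None of the scar collagens Col1a1, Col1a2 and Col3a1 was called higher with lithium at 14 or 28 days, and several fibrillar collagens fell. Col1a1, the main chain of type I collagen, was at 92.5 to 137 CPM (median 108) in 14-day controls, 53.5 to 102 CPM (median 73.4) with lithium and 76.2, 71, 89.2, 67 and 70.1 CPM with lithium-amiloride. Only the highest lithium rat reached into the control range, and the log2 fold changes were -0.58 ± 0.14 (SE), adjusted p = 0.00341 for lithium and -0.56 ± 0.14 (SE), adjusted p = 0.0102 for lithium-amiloride over control. The 14-day call of Col1a1 for lithium-amiloride was lost when control 2 was left out. Col1a1 then had a log2 fold change of -0.49 and an adjusted p of 0.0242. At 28 days the controls spread from 64.2 to 138 CPM (median 115) and lithium from 31.1 to 107 CPM (median 58.4), so the groups overlapped and the difference was not called (-0.75 ± 0.27 (SE), adjusted p = 0.0559). Lithium-amiloride stood at 66.5, 70.6, 55.4, 30.3 and 41.6 CPM (-0.99 ± 0.29 (SE), adjusted p = 0.0128 against control). Controls 1 and 4 were the low ones for Col1a1 at 28 days, at 64.2 and 69.4 CPM, and lithium 1 was the high one of its group at 106.7 CPM. Lithium 1 also held fat cell markers at a sum of 223.7 CPM where the other lithium libraries held 32.1 to 55.0 CPM, and whether that tissue adds to its Col1a1 was not tested.

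**Figure D5:**
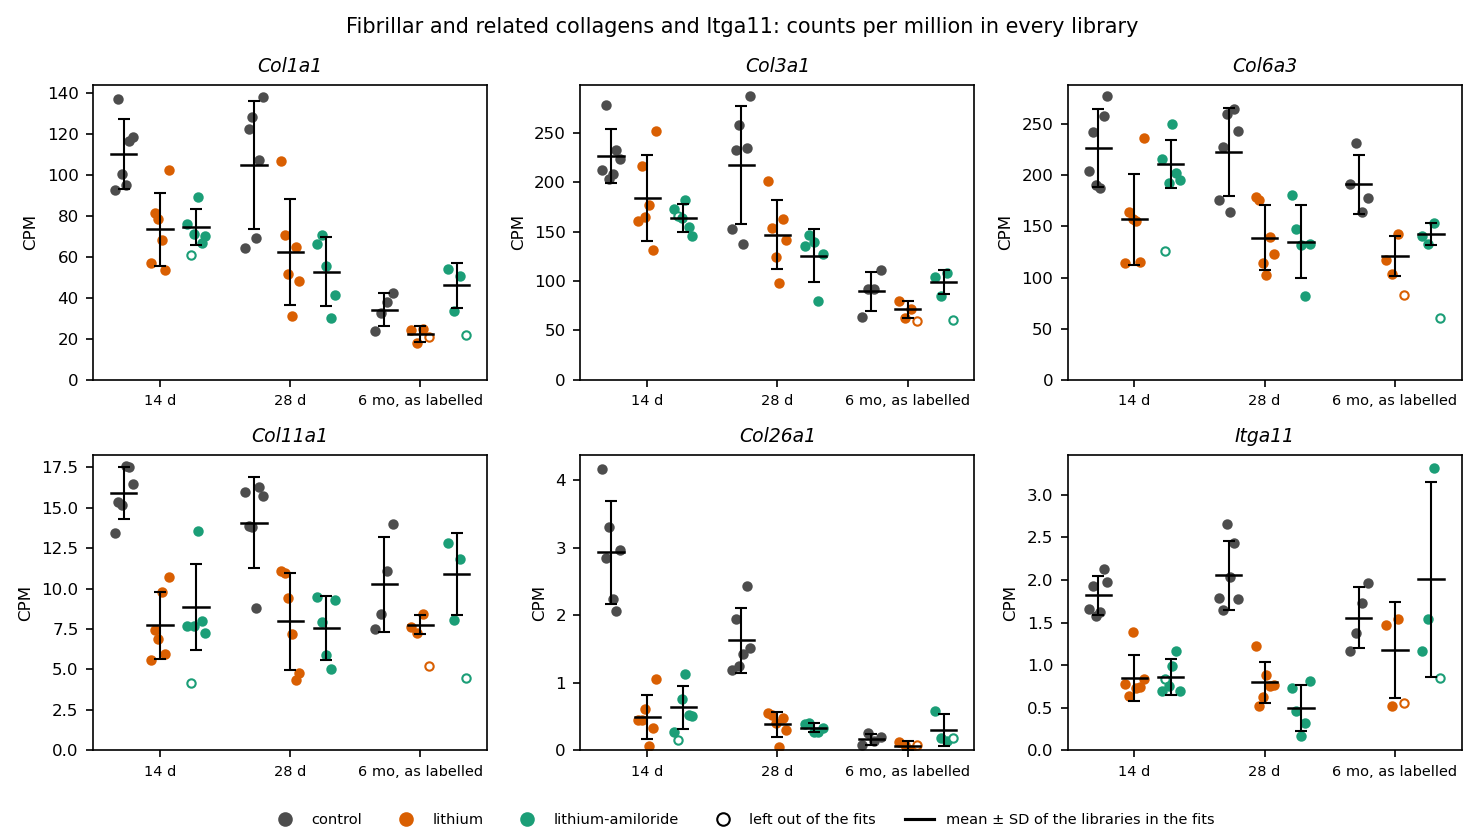
CPM in every library for 5 collagens and Itga11, by study and labelled group (dots, libraries; open dots, left out of the fits; lines, mean ± SD). At 14 days the Col26a1 controls sit at 2.06 to 4.16 CPM and all lithium-fed rats in the fits at or below 1.13 CPM, and Col1a1 has 1 lithium library, at 102.2 CPM, within the control range.

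Col3a1, the type III chain that lies with type I in interstitial fibres, was at 203 to 278 CPM (median 218) in controls and 131 to 252 CPM (median 171) with lithium at 14 days, a difference that was not called (-0.30 ± 0.12 (SE), adjusted p = 0.0761). At 28 days it was at 137 to 288 CPM (median 234) in controls, 98.5 to 201 CPM (median 148) with lithium (-0.56 ± 0.19 (SE), adjusted p = 0.049) and 136, 146, 139, 80.0 and 128 CPM with lithium-amiloride (-0.79 ± 0.21 (SE), adjusted p = 0.0074). Leaving out control 2, 3, 5 or 6, lithium 2, 3, 4 or 6 or lithium-amiloride 1, 2, 3 or 5, one at a time, ended the 28-day call of Col3a1 for lithium. Those fits gave Col3a1 a log2 fold change of -0.57 to -0.47 and an adjusted p of 0.054 to 0.113. Col1a2, the second chain of type I collagen, was counted at 6 to 44 reads per library in 14-day controls and 5 to 139 reads with lithium-amiloride, with a wide spread within each group. It was not called in any comparison, and whether the gene model used in counting covers the whole transcript was not tested. Col11a1, a minor chain that nucleates thin fibrils, fell from 13.4 to 17.6 CPM (median 15.9) to 5.61 to 10.7 CPM (median 7.14) with lithium at 14 days with no overlap (-1.04 ± 0.17 (SE), adjusted p = 1.73e-04) and from 8.8 to 16.3 CPM (median 14.8) to 4.32 to 11.1 CPM (median 8.31) at 28 days (-0.82 ± 0.23 (SE), adjusted p = 0.0203). Lithium-amiloride gave 7.7, 7.67, 13.6, 7.98 and 7.27 CPM at 14 days and 9.45, 7.96, 5.92, 5.05 and 9.29 CPM at 28 days. Itga11, the fibroblast receptor for fibrillar collagen, fell beside it. It was at 1.57 to 2.13 CPM (median 1.8) in 14-day controls and 0.64 to 1.39 CPM (median 0.756) with lithium (-1.10 ± 0.20 (SE), adjusted p = 4.31e-04), and at 1.65 to 2.66 CPM (median 1.91) and 0.523 to 1.22 CPM (median 0.763) at 28 days (-1.35 ± 0.27 (SE), adjusted p = 0.00264), with no overlap at either time. With lithium-amiloride the Itga11 values were 0.694, 0.755, 0.994, 1.17 and 0.695 CPM and 0.727, 0.468, 0.168, 0.319 and 0.815 CPM.

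Col27a1, a fibrillar chain of cartilage and developing tissues, was higher with lithium-amiloride than in controls at 14 days, at 111, 102, 113, 135 and 128 CPM against 64.6 to 86.3 CPM (median 68.6) with no overlap (0.71 ± 0.12 (SE), adjusted p = 4.94e-04). Lithium alone was at 75.9 to 134 CPM (median 88.9) and was not called (0.39 ± 0.12 (SE), adjusted p = 0.0198). Of the 5 markers of pericytes, fibroblasts and smooth muscle with a symbol, 2 were called higher with lithium at 14 days and none was called at 28 days, where their sum was 356.2 to 581.9 CPM in controls and 402.1 to 636.2 CPM with lithium. The part of the markers in the collagen values was not tested.

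The 3 chains that assemble into beaded type VI filaments moved together at 28 days. Col6a1 was at 53.5 to 92.3 CPM (median 82.2) in controls and 33.6 to 63.3 CPM (median 46.1) with lithium (-0.68 ± 0.20 (SE), adjusted p = 0.0238). For Col6a2 the values were 57.9 to 113 CPM (median 106) and 36.9 to 70.4 CPM (median 55.2) (-0.82 ± 0.18 (SE), adjusted p = 0.00534), and for Col6a3 they were 164 to 264 CPM (median 235) and 103 to 179 CPM (median 131) (-0.68 ± 0.18 (SE), adjusted p = 0.0145). All 3 also fell with lithium-amiloride against control, with log2 fold changes of -0.66 ± 0.21 (SE), -0.87 ± 0.19 (SE) and -0.72 ± 0.19 (SE). At 14 days Col6a3 alone was called, from 188 to 278 CPM (median 223) to 114 to 236 CPM (median 156) (-0.53 ± 0.15 (SE), adjusted p = 0.0123), and lithium-amiloride was at 216, 193, 249.8, 202 and 196 CPM. The 28-day call of Col6a1 for lithium was lost when control 3, 5 or 6 or lithium 3, 4 or 6 was left out. Col6a1 then had a log2 fold change of -0.64 to -0.60 and an adjusted p of 0.0503 to 0.0587. Leaving out control 5 or 6 or lithium 1 or 5, one at a time, ended the 14-day call of Col6a3 for lithium. Those fits gave Col6a3 a log2 fold change of -0.49 to -0.45 and an adjusted p of 0.0269 to 0.0332. Col6a6, another type VI chain, was not called at 28 days (0.35 ± 0.17 (SE)).

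Col26a1, a short collagen with an EMI domain, had the lowest log2 fold change of the members with lithium at both 14 and 28 days. Its level was 2.06 to 4.16 CPM (median 2.91) in 14-day controls, 0.0663 to 1.05 CPM (median 0.45) with lithium and 0.278, 0.755, 1.13, 0.519 and 0.505 CPM with lithium-amiloride. No lithium-fed rat reached the lowest control, and the log2 fold changes were -2.57 ± 0.35 (SE), adjusted p = 2.89e-05 and -2.19 ± 0.36 (SE), adjusted p = 2.67e-04. The lithium libraries held 1 to 15 reads, against 22 to 55 reads in controls. At 28 days the same order held, with 1.19 to 2.43 CPM (median 1.47) in controls, 0.055 to 0.55 CPM (median 0.441) with lithium and 0.392, 0.41, 0.279, 0.266 and 0.326 CPM with lithium-amiloride (-2.07 ± 0.31 (SE), adjusted p = 2.43e-04 for lithium). Lithium-amiloride 2 of 14 days, a library outside the fits, held 0.152 CPM. At 6 months it was under 1 CPM in every library and was not tested.

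Other fibril-associated chains moved singly. Col20a1 rose with lithium at 14 days from 0.60 to 1.14 CPM (median 0.885) to 1.31 to 2.26 CPM (median 1.94) with no overlap (1.10 ± 0.20 (SE), adjusted p = 5.34e-04), and at 28 days it was not called (0.36 ± 0.28 (SE), adjusted p = 0.373). Col16a1, which links fibrils to cells, fell with lithium-amiloride at 28 days (-0.71 ± 0.18 (SE), adjusted p = 0.0065). Col22a1 was listed by the 28-day study alone and was at 0.301 to 1.95 CPM (median 0.97) in its controls and 0.055 to 0.349 CPM (median 0.32) with lithium, while at 14 days, where it can be tested, it was not called (-0.64 ± 0.48 (SE), adjusted p = 0.345). Col9a2 was at 1.14 to 1.59 CPM (median 1.32) in 14-day controls and 0.416, 0.692, 0.596, 0.779 and 0.442 CPM with lithium-amiloride, a description since only the 14-day study lists it.

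Of the basement membrane collagens, the type IV chains were not called with lithium. Col4a1, Col4a4 and Col4a5 are listed by the 14-day study alone, so their 14-day values are descriptions. Their lithium response at 28 days less that at 14 days was -0.29 ± 0.11, 0.23 ± 0.17 and 0.32 ± 0.11 (SE, log2 scale), given without a test. At 28 days Col4a1, the alpha 1 chain of type IV collagen, was at 525 to 646 CPM (median 589) in controls and 514 to 695 CPM (median 566) with lithium (-0.03 ± 0.08 (SE), adjusted p = 0.834), and the 95% interval of the log2 fold change ran from -0.21 to 0.15. Col4a2, transcribed away from the same promoter region, was at 197 to 284 CPM (median 259.6) and 219 to 285 CPM (median 256) (0.02 ± 0.08 (SE), adjusted p = 0.868), with an interval from -0.15 to 0.20. The library with the highest Col4a1 at 14 days, lithium 4, was also the highest for Col4a2, at 1018 and 460.1 CPM. Of the chains of the glomerular basement membrane, Col4a3 rose with lithium-amiloride at 28 days (0.51 ± 0.18 (SE), adjusted p = 0.031), and Col4a4 and Col4a5 were not called in any comparison. The 28-day call of Col4a3 for lithium-amiloride was lost when control 2 or 4 or lithium-amiloride 1, 4 or 5 was left out. Col4a3 then had a log2 fold change of 0.41 to 0.50 and an adjusted p of 0.0571 to 0.0659. Col7a1, the anchoring fibril collagen under epithelia, rose with lithium at 14 days (0.54 ± 0.17 (SE), adjusted p = 0.0265) and was not called at 28 days (0.13 ± 0.24 (SE), adjusted p = 0.732). Leaving out control 1, 3 or 4 or lithium 1 or 4, one at a time, ended the 14-day call of Col7a1 for lithium. Those fits gave Col7a1 a log2 fold change of 0.44 to 0.51 and an adjusted p of 0.0526 to 0.0617. Col8a2, a network collagen of vessels, was at 18.1 to 39.2 CPM (median 32.3) in 28-day controls and fell to 12.3 to 24.6 CPM (median 18.3) with lithium (-0.74 ± 0.25 (SE), adjusted p = 0.0455). The 28-day call of Col8a2 for lithium was lost when control 2, 3, 5 or 6, lithium 2, 3, 4, 5 or 6 or lithium-amiloride 3 was left out. Col8a2 then had a log2 fold change of -0.78 to -0.65 and an adjusted p of 0.0507 to 0.105. Col18a1, the basement membrane collagen from which endostatin is cut, rose from 242 to 276 CPM (median 255) to 348 to 399 CPM (median 362) with lithium at 14 days with no overlap (0.51 ± 0.05 (SE), adjusted p = 7.19e-07). Leaving out control 2, 3 or 6 or lithium 2, one at a time, ended the 14-day call of Col18a1 for lithium. Those fits gave Col18a1 a log2 fold change of 0.48 to 0.50 and an adjusted p of 2.32e-06 to 5.29e-06. At 28 days its change with lithium was under the limit (0.43 ± 0.09 (SE), adjusted p = 0.00512), and with lithium-amiloride it was over it (0.57 ± 0.10 (SE), adjusted p = 4.24e-04).

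Col17a1, the transmembrane collagen of hemidesmosomes, was at 1.43 to 4.3 CPM (median 2.37) in 28-day controls and 3.52 to 6.38 CPM (median 4.46) with lithium (0.79 ± 0.26 (SE), adjusted p = 0.043). The 28-day call of Col17a1 for lithium was lost when control 1, 2, 4 or 5, lithium 1, 2, 3, 5 or 6 or lithium-amiloride 2 or 3 was left out. Col17a1 then had a log2 fold change of 0.66 to 0.82 and an adjusted p of 0.0503 to 0.0956. With lithium-amiloride Col17a1 was at 3.97, 4.8, 4.47, 6.7 and 6.41 CPM (0.97 ± 0.27 (SE), adjusted p = 0.0104). At 14 days the values were wide, 2.65 to 14.9 CPM (median 4.45) in controls and 4.63 to 24.8 CPM (median 8.44) with lithium, and the gene was not called (0.75 ± 0.44 (SE), adjusted p = 0.222).

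Of the 15 members of the ADAMTS family, 4 were higher with lithium at 14 days and none lower, where 8.49% of all genes were higher and 3.63% lower. The members were chosen because a table lists them, and of all genes with a symbol 12.6% were higher and 5.31% lower. At 28 days 1 was higher and 3 were lower, where 5.49% of all genes were higher and 3.59% lower. Of the genes with a symbol, 8.3% were then higher and 5.46% lower. Of the called ones, Adamts15 at 14 days and Adamts14 at 28 days are listed by the tables of that time alone. Adamts1, a protease of versican and aggrecan, rose at 14 days from 43 to 80.3 CPM (median 54.6) to 64 to 105 CPM (median 95) (0.64 ± 0.20 (SE), adjusted p = 0.021), with lithium-amiloride at 66.9, 44.4, 115, 61.1 and 89.5 CPM. At 28 days Adamts1 was at 44.9 to 66.8 CPM (median 48.5) and 51.4 to 93.3 CPM (median 73.9) and was not called (0.41 ± 0.14 (SE), adjusted p = 0.0416). Adamtsl5, a secreted protein of fibrillin microfibrils, was higher in every contrast of lithium-fed rats with controls: 0.508 to 1.27 CPM (median 1.01) in 14-day controls, 2.39 to 3.96 CPM (median 2.91) with lithium and 3.95, 2.2, 2.19, 2.21 and 2.84 CPM with lithium-amiloride. The log2 fold changes over control were 1.67 ± 0.22 (SE), adjusted p = 1.56e-05 and 1.44 ± 0.23 (SE), adjusted p = 1.85e-04, with no overlap. At 28 days controls were at 0.60 to 1.72 CPM (median 1.04) and lithium at 1.37 to 3.12 CPM (median 2.46), which overlapped in 1 lithium library (1.10 ± 0.26 (SE), adjusted p = 0.00867). Lithium-amiloride was at 1.96, 2.28, 3.8, 3.09 and 3.53 CPM (1.35 ± 0.27 (SE), adjusted p = 0.00126).

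At 28 days Adamts8 fell from 2.82 to 6.96 CPM (median 3.83) to 1.16 to 2.44 CPM (median 1.61) with no overlap (-1.28 ± 0.23 (SE), adjusted p = 0.00126). Adamtsl2, which binds fibrillin and a latent TGF-beta binding protein, fell from 52.6 to 82 CPM (median 72.3) to 20.5 to 44.1 CPM (median 32.3), also with no overlap (-1.05 ± 0.20 (SE), adjusted p = 0.00228), and stood at 49, 55.7, 34.7, 23 and 28.6 CPM with lithium-amiloride (-0.84 ± 0.21 (SE), adjusted p = 0.00623). Neither was called at 14 days, with log2 fold changes of 0.10 ± 0.37 (SE) and -0.24 ± 0.21 (SE). Adamts3, a procollagen N-propeptidase, was at 0.858 to 1.71 CPM (median 1.08) in 28-day controls and rose with lithium-amiloride to 2.46, 3.63, 3.24, 1.65 and 3.7 CPM (1.28 ± 0.25 (SE), adjusted p = 0.00118). With lithium alone it was at 1.51 to 2.57 CPM (median 1.56) (0.64 ± 0.25 (SE), adjusted p = 0.0758).

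Amiloride set against lithium alone moved few members. At 14 days 3 of 69 were called, 1 higher and 2 lower, where 2.19% of all genes were (0.79% higher and 1.4% lower). Of the 50 tested that another study lists 1 was called, Adamts4, beside 3.43% of all genes so listed. By the adjusted p alone 6 members passed, where 3.27% of all genes did. Adamts4, an aggrecan protease, rose with lithium from 2.95 to 4.28 CPM (median 3.33) to 4.63 to 9.14 CPM (median 6.5) (0.91 ± 0.17 (SE), adjusted p = 6.87e-04) and was at 4.44, 3.4, 3.98, 2.92 and 2.65 CPM with lithium-amiloride (-0.92 ± 0.18 (SE), adjusted p = 0.00706 against lithium), with no overlap in either contrast. The call was kept in all 17 fits that left out a library. The 2 contrasts share the lithium libraries, so they are not independent. At 28 days Adamts4 was not called, with 2.0 to 4.85 CPM (median 3.47) in controls, 2.35 to 5.35 CPM (median 3.06) with lithium and 1.51, 2.22, 2.18, 4.47 and 4.57 CPM with lithium-amiloride (-0.20 ± 0.30 (SE), adjusted p = 0.804). The other 2 were chosen by the 14-day tables alone: Itgb7, described above, and Col9a1, a cartilage collagen, at 4.86 to 9.07 CPM (median 8.11) in controls, 2.53 to 5.87 CPM (median 4.47) with lithium and 5.2, 8.68, 8.41, 8.57 and 7.96 CPM with lithium-amiloride. The count of 3 was 5 without lithium 1 or lithium-amiloride 3 and 6 without lithium 3. At 28 days no member was called by edgeR or by DESeq2, where 0.438% of all genes were called by edgeR (0.339% higher and 0.099% lower), and 0.958% of those listed by another study. At an unadjusted p under 0.05 there were 7 of 69 members (10.1%), beside 11.1% of all genes, and the smallest adjusted p was that of Itga8 (-0.42 ± 0.14 (SE), adjusted p = 0.262).

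Lithium-amiloride differed from control in more members than it did from lithium. At 14 days 13 of 69 were called, 7 higher and 6 lower, where 8.32% of all genes were (5.04% higher and 3.27% lower). By the adjusted p alone 21 passed, where 17.8% of all genes did. Of the 50 tested that another study lists 10 were called, beside 11.7% of all genes so listed. At 28 days 34 of 69 were called, 15 higher and 19 lower, where 16.6% of all genes were (9.82% higher and 6.79% lower). Of 58 listed by another study 25 were called, beside 22.5% of all genes so listed. The 28-day calls were 10 integrin chains higher and 3 lower, 3 collagens higher and 12 lower, and 2 Adamts members higher and 4 lower. Among those that another study lists they were 6 and 2 of 17 integrin chains, 3 and 9 of 26 collagens and 2 and 3 of 13 Adamts members. This comparison and lithium against control share their control libraries, so the likeness of the 2 is not independent. Itgb4, Itga2, Adamtsl5 and Itgb6 were called higher and Col11a1, Col1a1, Col26a1 and Itga11 lower with lithium-amiloride at both times. The 14- and 28-day studies share no libraries.

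At 6 months the members differed most between the libraries labelled lithium-amiloride and the others. Between labelled control and labelled lithium-amiloride, the contrast that the tables call lithium against control, 18 of 68 members were called, 16 higher and 2 lower, where 7.54% of all genes were called (5.44% higher and 2.1% lower). Of the 61 tested members that another study lists 16 were called, beside 10.7% of all genes so listed. Between labelled lithium and labelled lithium-amiloride, the tables' lithium-amiloride against control, 14 members were called, 9 higher and 5 lower, where 7.78% of all genes were (5.77% higher and 2.01% lower). Of the 61 tested that another study lists 11 were called, beside 11.8% of all genes so listed. Between labelled lithium and labelled control, the tables' lithium-amiloride against lithium, 2 were called lower, where 1.99% of all genes were called (1.39% higher and 0.599% lower). Of the 61 that another study lists 1 was called, Col6a3, beside 3.06% of all genes so listed. The groups held 3 or 4 libraries, and single ones moved these counts. The first contrast gave 11 without labelled lithium-amiloride 1. The second gave 5 without labelled lithium 2, 7 without labelled lithium 3 and 9 without labelled lithium-amiloride 1. The third gave 10 without labelled control 1, 1 without labelled control 2, labelled lithium 1 or labelled lithium 3, and 0 without labelled lithium 2.

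Itgb4, Itga2 and Adamtsl5, called higher with lithium at 14 and 28 days, were also called at 6 months. Itgb4 was at 24.3, 25.6, 21.8 and 25.3 CPM in the libraries labelled control, 29.7, 29.7 and 35 CPM in those labelled lithium and 9.22, 6.1 and 9.36 CPM in those labelled lithium-amiloride, with no overlap between any of them. Labelled control was higher than labelled lithium-amiloride by 1.57 ± 0.14 (SE), adjusted p = 1.10e-04 and labelled lithium by 1.95 ± 0.15 (SE), adjusted p = 2.13e-05. Labelled lithium 4, outside the fits, held 39.9 CPM and labelled lithium-amiloride 4 held 5.36 CPM, each on the side of its own labelled group. For Itga2 the values were 1.27, 1.42, 0.933 and 1.4 CPM, 0.822, 1.04 and 0.908 CPM and 0.485, 0.182 and 0.615 CPM in the same order (1.56 ± 0.34 (SE), adjusted p = 0.0114 for labelled control over labelled lithium-amiloride). Adamtsl5 was at 3.49, 3.58, 4.0 and 3.12 CPM, 3.42, 4.03 and 3.95 CPM and 1.36, 0.956 and 1.7 CPM (1.41 ± 0.19 (SE), adjusted p = 0.00127). Under the tables' names these are again higher values in lithium-fed rats, and under the labels they are lower values in lithium-amiloride rats. Principal cell markers summed to 79.1 to 112.6 CPM in labelled control, 164.6 to 197.1 CPM in labelled lithium and 253 to 348.8 CPM in labelled lithium-amiloride. Under the tables' names that is lowest with lithium, between with lithium-amiloride and highest in controls, which is the order of the median sums at 14 and at 28 days. Single principal cell markers did not all follow the sums. At 6 months 3 of 4 were called lower in labelled control than in labelled lithium-amiloride. For labelled lithium against labelled lithium-amiloride 1 of 4 was called lower, with a median log2 fold change of -0.057. For lithium-amiloride against control 1 of 4 was called lower at 14 days, and 2 of 4 were called higher and 1 lower at 28 days. The part of these cells in the member values was not tested.

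Under the tables' names 6 members were called higher with lithium against control in all 3 studies, Itgb4, Itga2, Adamtsl5 and the leukocyte chains Itgal, Itga4 and Itgb2, and no member was called lower in all 3. The same counts were not made over all genes, here or under the labels, so no share stands beside them. Itgal was at 18.6, 22.5, 16.1 and 21.9 CPM in labelled control and 11.4, 11.8 and 14.1 CPM in labelled lithium-amiloride (0.68 ± 0.13 (SE), adjusted p = 0.0065). Under the labels no member was called higher with lithium in all 3, and 1, Col6a3, was called lower. Its libraries were at 191, 231, 164 and 178 CPM labelled control, 117, 103 and 142 CPM labelled lithium and 140.1, 133 and 154 CPM labelled lithium-amiloride (-0.66 ± 0.13 (SE), adjusted p = 0.0267 for labelled lithium against labelled control). Leaving out labelled control 2 or labelled lithium 1 or 2, one at a time, ended the 6-month call of Col6a3 for labelled lithium. Those fits gave Col6a3 a log2 fold change of -0.64 to -0.55 and an adjusted p of 0.0548 to 0.123. The epithelial collagens Col17a1, Col18a1 and Col7a1 were higher in labelled control than in labelled lithium-amiloride, by 1.92 ± 0.36 (SE), adjusted p = 0.00623, 0.82 ± 0.09 (SE), adjusted p = 5.37e-04 and 1.35 ± 0.21 (SE), adjusted p = 0.00271. Col17a1 was at 6.63, 6.29, 9.82 and 11 CPM, 7.62, 4.14 and 6.99 CPM and 3.35, 1.05 and 2.32 CPM in labelled control, lithium and lithium-amiloride. The 6-month call of Itga4 for labelled control was lost when labelled control 2 or 4, labelled lithium 2 or labelled lithium-amiloride 1 or 2 was left out. Itga4 then had a log2 fold change of 0.54 to 0.76 and an adjusted p of 0.0523 to 0.139. Leaving out labelled control 4 or labelled lithium-amiloride 1 or 2, one at a time, ended the 6-month call of Itgb2 for labelled control. Those fits gave Itgb2 a log2 fold change of 0.54 to 0.56 and an adjusted p of 0.0508 to 0.0914. Adamts3 had the values 1.42, 1.64, 1.07 and 1.24 CPM, 1.17, 1.79 and 1.42 CPM and 0.146, 0.455 and 0.709 CPM (1.61 ± 0.38 (SE), adjusted p = 0.0177). The 6-month call of Adamts3 for labelled control was lost when labelled lithium-amiloride 2 was left out. Adamts3 then had a log2 fold change of 1.63 and an adjusted p of 0.0553. Of the 16 calls of this contrast that another study lists, 8 were kept whichever library was left out, and of the 11 of labelled lithium against labelled lithium-amiloride 3 were.

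Of the scar collagens, Col1a1 differed at 6 months and Col3a1 was not called. Col1a1 was at 24, 32.8, 38 and 42.5 CPM in labelled control, 24.1, 18.1 and 25 CPM in labelled lithium and 54.1, 33.8 and 50.7 CPM in labelled lithium-amiloride. Labelled lithium lay below labelled lithium-amiloride with no overlap (-1.03 ± 0.22 (SE), adjusted p = 0.0121), and its difference from labelled control was not called (-0.61 ± 0.21 (SE), adjusted p = 0.157). Under the tables' names these are lithium-amiloride against control and lithium-amiloride against lithium. The tables' lithium against control was not called for Col1a1. Leaving out labelled lithium 2 ended the 6-month call of Col1a1 for labelled lithium against labelled lithium-amiloride. That fit gave Col1a1 a log2 fold change of -0.90 and an adjusted p of 0.0546. The Col3a1 values were 63.4, 91.6, 92.3 and 112 CPM, 80.1, 62.5 and 71.5 CPM and 104, 85.4 and 108 CPM. Adamtsl2 was lower in both other groups than in labelled lithium-amiloride, at 31, 42.5, 59.7 and 48 CPM, 56.1, 38 and 52.1 CPM and 85.6, 77.5 and 90.7 CPM (-0.89 ± 0.19 (SE), adjusted p = 0.0107 for labelled control and -0.79 ± 0.20 (SE), adjusted p = 0.0286 for labelled lithium). Under the tables' names these are lower values with lithium and with lithium-amiloride than in controls. The 6-month call of Adamtsl2 for labelled lithium against labelled lithium-amiloride was lost when labelled lithium 2 or 3 or labelled lithium-amiloride 1 or 3 was left out. Adamtsl2 then had a log2 fold change of -0.84 to -0.63 and an adjusted p of 0.0711 to 0.102. Markers of pericytes, fibroblasts and smooth muscle summed to 304.0 to 347.8 CPM in labelled lithium, 464.0 to 658.8 CPM in labelled control and 409.5 to 521.4 CPM in labelled lithium-amiloride, and their part in the collagen values was not tested. Itgb3, the beta 3 chain of platelets and vessels, is listed only by the 6-month study and was at 3.22, 2.54, 2.98 and 2.56 CPM in labelled control, 1.6, 1.34 and 1.5 CPM in labelled lithium and 1.7, 1.55 and 1.7 CPM in labelled lithium-amiloride.

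Members called only in the study that alone lists them were 20 of the 50, and their values are descriptions. At 6 months Adamtsl3, a protein of the elastic fibre, was at 6.52, 3.66, 5.29 and 5.89 CPM in labelled control, 7.18, 7.91 and 10.5 CPM in labelled lithium and 3.74, 3.87 and 3.31 CPM in labelled lithium-amiloride. Itgb1bp2, the muscle chaperone melusin, which binds the beta 1 tail and is no integrin chain, was at 1.31, 0.948, 1.29 and 1.16 CPM, 0.909, 0.896 and 1.03 CPM and 0.243, 0.501 and 0.473 CPM. Itgbl1, a secreted protein with integrin-like repeats, was at 1.82 to 2.55 CPM (median 2.17) in 14-day controls, 0.849 to 1.86 CPM (median 1.45) with lithium and 1.53, 1.45, 1.79, 0.909 and 1.26 CPM with lithium-amiloride. Where another study lists them they were not called in any comparison, the log2 fold change of lithium over control at 28 days being 0.58 ± 0.33 (SE), adjusted p = 0.22 for Adamtsl3, -0.05 ± 0.34 (SE), adjusted p = 0.932 for Itgb1bp2 and -0.28 ± 0.25 (SE), adjusted p = 0.455 for Itgbl1.

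The lithium response itself was compared between 28 and 14 days. Of 70 members 5 were called, where 3.84% of all genes were, and of the 33 that a 6-month table lists 1 was called, Adamtsl4, a fibrillin-binding protein. Adamtsl4 was at 23.1 to 32.9 CPM (median 27.2) in 14-day controls and 34.3 to 44.5 CPM (median 37.9) with lithium, with no overlap, and at 24.1 to 33.2 CPM (median 31.6) and 26.4 to 32.9 CPM (median 27.8) at 28 days. The response at 28 days was lower than at 14 days by 0.53 ± 0.14 (SE, log2 scale), adjusted p = 0.0199. Itga3, Itgb7, Col9a1 and Col6a6 were also past the limits, but they are listed by the 14- or 28-day tables that enter this contrast, and their values are given without a test. The call of Adamtsl4 was lost without 14-day lithium 4, where the difference of -0.4993 was just under the limit (adjusted p = 0.0329). Left out one at a time, the 34 libraries left Itgb7 short of the limits in 18 fits, Col6a6 in 8, Itga3 in 1 and Col9a1 in none. The count of 5 was 3 without any one of 9 libraries and 13 without control 1 of 28 days.

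Genes that work with the members were counted from 9 lists. Only genes with a symbol in a table could be looked up, so these counts lean towards genes that changed somewhere. Of all genes with a symbol, 12.6% were higher and 5.31% lower with lithium at 14 days and 8.3% were higher and 5.46% lower at 28 days. Lithium-amiloride was lower than lithium for 2.17% of them at 14 days and 0.159% at 28 days. Of 11 laminins and nidogens, the basement membrane partners of integrins, 3 were higher and 3 lower with lithium at 14 days and 2 were higher and 1 lower at 28 days. Of the higher ones, the laminin chain gene Lamb3 had log2 fold changes over control of 3.3 ± 0.30 (SE) at 14 days and 2.61 ± 0.24 (SE) at 28 days, and Lama3 of 1.34 ± 0.15 (SE) and 0.61 ± 0.12 (SE). Against lithium, lithium-amiloride was lower for 1 of the 11 at each time and higher for none. That gene was Lamb3, at -2.52 ± 0.29 (SE) and -1.93 ± 0.23 (SE). Of 15 other integrin ligands 9 were higher and none lower with lithium at 14 days, and 6 of the 15 were lower with lithium-amiloride than with lithium. At 28 days 6 of the 14 tested were higher and 1 lower with lithium, and 1 was lower with lithium-amiloride than with lithium. Among them at 14 days, Icam1, the ligand of LFA-1, had log2 fold changes of 0.88 ± 0.12 (SE) with lithium and -0.68 ± 0.12 (SE) with lithium-amiloride against lithium. Fgg, the fibrinogen gamma chain, had values of 3.20 ± 0.47 (SE) and -2.34 ± 0.42 (SE), and Spp1, osteopontin, of 1.61 ± 0.30 (SE) and -2.31 ± 0.33 (SE). The 28-day values of Icam1 were 0.03 ± 0.09 (SE) and -0.29 ± 0.09 (SE), neither called, and those of Spp1 were 1.02 ± 0.21 (SE), called higher, and -0.80 ± 0.22 (SE), not called.

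For the enzymes that make or break collagen the lists were mixed. Of 7 cross-linking genes 2 were higher and 2 lower at 14 days and 2 higher and 3 lower at 28 days with lithium. Lox, which oxidises lysines of collagen, had log2 fold changes of 1.26 ± 0.19 (SE) and 0.71 ± 0.15 (SE), and Tgm2, a transglutaminase, of -1.10 ± 0.17 (SE) and -0.96 ± 0.18 (SE). Of 13 synthesis and folding genes 2 were higher and none lower at 14 days, and 2 were higher and 2 lower at 28 days. Of 8 collagen-degrading proteases and their inhibitors 3 were higher at 14 days, among them Mmp2 at 1.44 ± 0.09 (SE) and Timp1 at 1.10 ± 0.14 (SE). At 28 days Mmp2 was at 1.25 ± 0.18 (SE) and Timp1 at -0.09 ± 0.20 (SE). Against lithium, lithium-amiloride at 14 days was lower for 1 of the 7 cross-linking genes, Lox, at -0.77 ± 0.20 (SE). It was also lower for 1 of the 8 proteases and inhibitors, Timp1, at -1.02 ± 0.14 (SE). These 2 values share their lithium libraries with the rises over control and are not independent of them. No other gene of these 2 lists was called in that contrast at 14 days, and none was at 28 days. Of 15 integrin adaptors and signalling genes 1 was called at 14 days and none at 28 days, and none of 3 collagen receptors outside the integrins was called at either time. Of 10 genes of latent TGF-beta and its activation 2 were higher at 14 days and none was called at 28 days, and of 2 Adamts substrates with a symbol none was called at 14 days and 1 was lower at 28 days.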

How the data were processed

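RNA was sequenced from kidney cortex in 47 libraries. Per the submitters' processing notes, the authors aligned reads with HISAT2 2.1.0 and counted them per gene with featureCounts 2.0.0 on Rnor_6.0, and the deposited matrices hold raw read counts. Whether the counting used strand is not given in the sources used here. The authors also deposited 9 DESeq2 tables of genes with an adjusted p under 0.05. Their mean normalised signal served only to find which libraries and groups each table used, their log2 fold changes only to match the 6-month group names, and the presence of a gene with a deposited p-value only to choose members and give symbols. None of their values is reported as a result.

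Counts were tested per time with edgeR 4.0.16 (R 4.3.3, limma 3.58.1): TMM scaling, filterByExpr, a quasi-likelihood F test over 3 groups and Benjamini-Hochberg adjustment over all genes. Calls required a log2 fold change of 0.5 or more in either direction besides an adjusted p under 0.05. The 95% intervals used the t distribution with the residual degrees of freedom. The test was checked on simulated counts. Alternatives were DESeq2 1.42.0, its size factors, no filter, only the 2 groups compared, a replicate block, all deposited libraries, no fold limit, and leaving out each library. Values by library were given for up to 5 called members with the largest and up to 5 with the smallest fold change per comparison, members called alike at 14 and 28 days, and Col1a1, Col1a2, Col3a1, Col4a1, Col4a2, Itgb1, Itgb6, Itgav, Itgb8 and Adamts1. Col4a3, Col7a1, Col16a1, Col18a1, Col6a6, Itga3, Itga6, Itga8, Itgax and Adamtsl4 were added after their values were seen. The members and lists were chosen with earlier results of these data known. One gene of the list of laminins and nidogens is not reported here.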

Additional observations from a re-analysis of the deposited data

Results flagged for a closer look

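A single library stood apart from its group, by Dixon's criterion, in 21 of the 266 groups of named members examined (7.89%), where chance gives about 1 in 20. At 14 days Col17a1 was at 24.8 CPM in lithium 1, where the other lithium libraries reached 11.5 CPM. Col6a2 was at 103.4 CPM in lithium 6 and Itga11 at 1.39 CPM in lithium 3, each the high value of its group. Among the 14-day controls the libraries apart were control 1 for Col1a2 (3.33 CPM), control 3 for Itgb2 (20.5 CPM) and control 4 for Itgb3 (1.22 CPM). Lithium-amiloride 4 was high for Col11a1 (13.6 CPM) and low for Itgav (63.2 CPM) and Itgb4 (15.6 CPM). In the same group Col9a1 was low in library 1 (5.20 CPM), Itgal high in library 3 (25.4 CPM) and Itga2 high in library 6 (2.46 CPM).

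At 28 days control 1 was high for Itgal (13.4 CPM) and Itgav (62.2 CPM), where the other controls reached 8.36 and 39.5 CPM. Adamts8 was high in control 6 (6.96 CPM), Itgb3 high in control 5 (3.29 CPM), Col11a1 low in control 4 (8.80 CPM), Col1a2 high in lithium 6 (2.73 CPM) and Col3a1 low in lithium-amiloride 4 (79.97 CPM). At 6 months labelled control 4 was high for Adamts4 (3.76 CPM, others 1.42 to 1.64 CPM) and Itga4 (6.53 CPM).

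The lithium response differed between 28 and 14 days for 5 members by the interaction term. The 28-day log2 fold change less the 14-day one was -0.53 for Adamtsl4, -0.59 for Itga3, -1.30 for Itgb7, 0.80 for Col6a6 and 1.17 for Col9a1. Without single libraries Itgb7 was short of the limits in 18 of 34 fits and Col6a6 in 8. Only the difference of Adamtsl4 is a test, since no 14- or 28-day table was needed to list it.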

How the results depend on the processing

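Over 38 named members, 339 fold changes were recomputed under the alternatives, giving 6887 values: 6626 kept direction and side of the threshold, 212 lost the call, 49 gained one and none reversed. Without the fold limit the count of called members was 6 for lithium-amiloride against lithium and 21 for lithium-amiloride against control at 14 days. With all deposited libraries the 6-month counts were 11 for labelled control against labelled lithium-amiloride, 0 for labelled lithium against labelled control and 7 for labelled lithium against labelled lithium-amiloride, and DESeq2 gave 7 for the second of these. The causes were not tested. Leaving out single libraries gave counts of 18 to 23 for lithium against control, 3 to 6 for lithium-amiloride against lithium and 10 to 14 for lithium-amiloride against control in the 14-day study. The same 3 contrasts gave 14 to 28, 0 to 0 and 29 to 38 in the 28-day study. In the 6-month study the ranges were 11 to 17 (labelled control against labelled lithium-amiloride), 0 to 10 (labelled lithium against labelled control) and 5 to 15 (labelled lithium against labelled lithium-amiloride). The count for the response at 28 against 14 days ranged from 3 to 13.

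Libraries with the same replicate number showed no common deviation: their correlations ran from -0.143 to 0.293 in the 14-day study, -0.219 to 0.27 in the 28-day study and -0.287 to 0.068 in the 6-month study. These correlations gave no sign of pairing by number, but they cannot show that the numbers carry no pairing. With a replicate block the 6-month counts were 10, 0 and 10, and the others 21, 4 and 9 at 14 days and 19, 0 and 31 at 28 days. Members with few reads, such as Col1a2, Col26a1 and Itga2, have imprecise folds, and gene lengths were not used.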
